A study of Homo sapiens with 4 samples.

Results

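Genes of the smooth muscle contractile apparatus around TAGLN were compared between TPC1 cells carrying an empty vector and TPC1 cells overexpressing INAVA. TPC1 is a cell line derived from a human papillary thyroid carcinoma. The 10 genes are TAGLN, TAGLN2, ACTA2, CNN1, CNN2, CNN3, TPM1, TPM2, MYL9 and CALD1. They were chosen by name, around TAGLN, whose difference between these groups in an earlier look at the same values was among the largest. The genes were thus chosen on this contrast, and their values here are a description. Of the 10 genes, 9 had a value among the 13165 genes of the table, and all 9 passed the filter, a level averaging 0.5 FPKM or more between the groups, as did 12305 genes in all. CNN1 was not analysed here.

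The groups were TPC1-Vector, the vector control, and TPC1-C1orf106, cells with a vector expressing C1orf106, the older symbol of INAVA, and this group is called TPC1-INAVA below. Each group had 2 libraries. Both cell populations were stable lines kept under 0.5 μg/mL puromycin over 2 weeks of selection. The vector was delivered by retrovirus according to the study's methods, while the labels speak of transfection. A difference between the groups cannot be told apart from a difference between separately selected populations. Whether the libraries of a group came from separate cultures is not stated in the sources used here. Each gene had 1 value per group in FPKM, the fragment count scaled to transcript length and to the mapped fragments of the library. No value per library, no spread and no replicate check could therefore be given, no test was run, and the depth behind the values is unknown. The targeted gene was at 7.96 FPKM in TPC1-Vector against 123 in TPC1-INAVA.

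In smooth muscle, contraction is driven by myosin moving along actin filaments and is switched on when the regulatory light chain of myosin is phosphorylated. ACTA2 encodes the actin of these filaments, MYL9 a regulatory light chain, TPM1 and TPM2 tropomyosins that lie along the filament, and CALD1 and the calponins CNN1, CNN2 and CNN3 proteins that bind actin and restrain or stabilise the filament. TAGLN (transgelin, SM22) and its relative TAGLN2 are small calponin-related proteins that bundle or stabilise actin filaments. Many of these genes are bound by the transcription factor SRF at a motif called the CArG box, together with myocardin or the related MRTF proteins, which respond to the pool of unpolymerised actin. Outside muscle, TAGLN and ACTA2 are widely used as markers of myofibroblasts, whereas TAGLN2, CNN2, CNN3 and several tropomyosin forms are made by many cell types.

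TAGLN and TAGLN2 are related genes, and the 60 aligned coding bases in which they are most alike are shown because TAGLN was weak and TAGLN2 strong in these cells. Capitals mark the 9 bases that differ (coding bases 254 to 313 of TAGLN and 314 to 373 of TAGLN2, from GENCODE release 29 transcripts).
TAGLN: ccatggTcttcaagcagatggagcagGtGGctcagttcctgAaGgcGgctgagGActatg
TAGLN2: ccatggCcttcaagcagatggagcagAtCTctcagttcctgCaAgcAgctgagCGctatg
Over the whole coding sequence the 2 genes were identical at 70.9% of 597 aligned bases, and their longest identical run was 19 bases. No stretch of 50 bases of a TAGLN transcript occurred in a transcript of TAGLN2.

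The same comparison is shown for ACTA2 and ACTB, since ACTA2 was weak and ACTB far more abundant. Capitals mark the 3 bases that differ (coding bases 1021 to 1080 of ACTA2 and 1015 to 1074 of ACTB).
ACTA2: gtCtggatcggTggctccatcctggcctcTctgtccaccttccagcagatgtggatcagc
ACTB: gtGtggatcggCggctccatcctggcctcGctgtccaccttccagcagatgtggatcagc
The coding sequences of the 2 actins were identical at 82.2% of 1125 aligned bases, with a longest identical run of 32 bases. A read much longer than this run can be placed, but short fragments of the 2 genes are close, and how the authors' counting treated them is not given in the sources used here.

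Promoter windows from 250 bases before to 50 bases after a start site (RefSeq, GRCh38.p14) were available for 8 of the 10 genes, with 16 windows in all. TAGLN and MYL9 had no window. Each window was searched for the CArG box, which reads alike on both strands, for a CArG box with 1 G or C in its A/T core, and for GGAATG on either strand, the motif of TEAD factors. An exact CArG box stood in 1 window, that of CNN2, and boxes with 1 such base stood in a window of ACTA2 and a window of CALD1. The sequences of CNN2 and ACTA2 are shown with the box in capitals, beside that of FHL2, a gene of the SRF target list described further on.
CNN2 (chr19:1026489-1026558, forward strand): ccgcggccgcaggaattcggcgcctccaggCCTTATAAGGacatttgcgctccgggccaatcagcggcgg
ACTA2, distal box (chr10:88952855-88952924, reverse strand): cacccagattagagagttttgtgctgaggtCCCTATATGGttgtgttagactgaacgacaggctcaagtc
ACTA2, proximal box (chr10:88952805-88952874, reverse strand): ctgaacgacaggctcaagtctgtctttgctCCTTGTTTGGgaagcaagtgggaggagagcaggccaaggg
FHL2 (chr2:105399071-105399140, reverse strand): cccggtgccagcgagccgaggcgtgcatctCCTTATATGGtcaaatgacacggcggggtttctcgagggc
The first base of the box lay at -89 from the start site in CNN2, at -121 and -71 in ACTA2, and at -59 in FHL2. FHL2 held another exact box, not shown, at -101 and -85 from other start sites. GGAATG was found in windows of ACTA2, CNN3 and CALD1 and overlapped none of these boxes. Of all 35116 windows, 1.29% held an exact CArG box, 6.94% a box with 1 G or C in the core, and 14.0% GGAATG. A match of letters is a description and not a site of binding.

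All 9 genes with a value were higher in TPC1-INAVA than in TPC1-Vector, whereas 50.8% of the 12305 genes kept were higher. Differences are given as log2 ratios of TPC1-INAVA over TPC1-Vector, after 0.5 FPKM was added to each value, which understates the difference of weak genes. The log2 ratios of the 9 genes ran from 0.03 for CNN2 to 2.51 for TAGLN, with a median of 0.46, beside a median of 0.0033 for all genes kept. Without TAGLN the median of the other 8 genes was 0.44.

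A difference of at least 1.5-fold on this scale was used to set genes apart. TAGLN and ACTA2 were at least 1.5-fold higher and none of the 9 genes was as much lower, while 2.24% of the genes kept were at least 1.5-fold higher and 1.45% at least as much lower. At 2-fold only TAGLN passed among the 9 genes, beside 0.61% of the genes kept that were higher and 0.244% that were lower. The genes were chosen on this contrast, and nothing is read from their counts. In RNA of whole cultures, a larger share of cells making a transcript and more transcript per cell cannot be told apart.

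**Figure D1:**
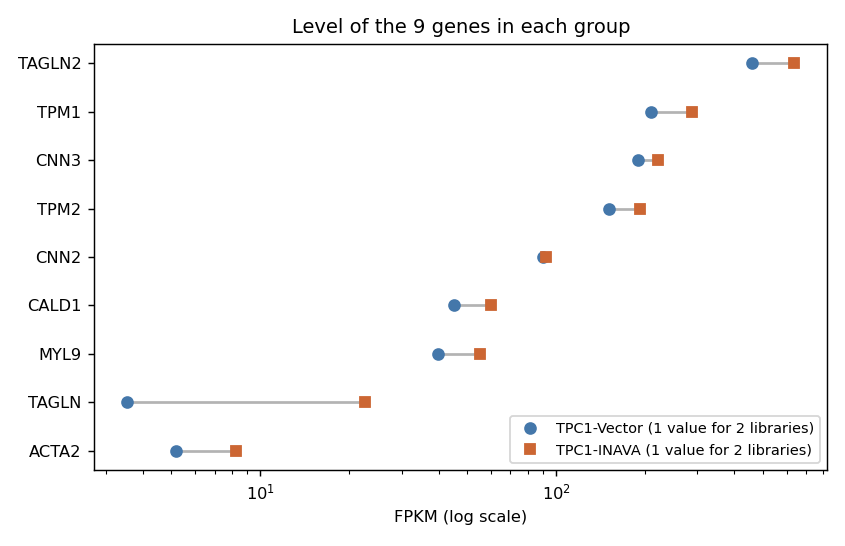
Level of the 9 genes in FPKM on a log axis, with the TPC1-Vector value as a blue circle and the TPC1-INAVA value as an orange square, each 1 value for the 2 libraries of a group. The line between the points is longest for TAGLN, from 3.55 to 22.5 FPKM, and the points of CNN2 nearly coincide at 90.1 and 92.3 FPKM.

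The order of levels was the same in both groups for 7 of the 9 genes. FPKM is scaled to transcript length, so levels can be compared between genes. In TPC1-Vector the order from the highest was TAGLN2, TPM1, CNN3, TPM2, CNN2, CALD1, MYL9, ACTA2 and TAGLN, and the highest was 129 times the lowest. In TPC1-INAVA only the last 2 genes of this order exchanged places, and the highest level was 76.9 times the lowest. Without a spread between libraries, it cannot be said which neighbours in the order differ beyond their error.

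The sum of the 9 levels was 1192 FPKM in TPC1-Vector against 1576 in TPC1-INAVA, a ratio of 1.32. Abundant genes made up most of this difference. TAGLN2 gave 46.0% of it, TPM1 20.5%, TPM2 10.6% and CNN3 8.61%, whereas TAGLN, with the largest ratio, gave 4.93% and ACTA2 0.805%.

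**Figure D2:**
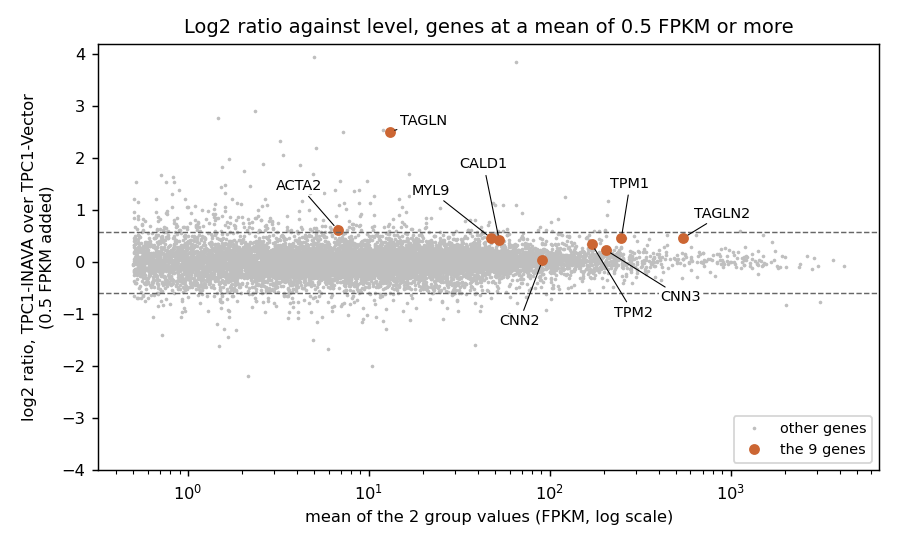
Log2 ratio of TPC1-INAVA over TPC1-Vector (0.5 FPKM added) against the mean of the group values in FPKM on a log axis, for genes averaging 0.5 FPKM or more, with the 9 genes in orange, the other genes in grey and dashed lines at 1.5-fold. TAGLN lies at 2.51 and ACTA2 at 0.63, both above the upper line, and the other 7 genes lie between 0.03 and 0.47. The plot leaves out 4 genes that lie beyond its axes.

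TAGLN was at 3.55 FPKM in TPC1-Vector against 22.5 in TPC1-INAVA, a ratio of 6.34. Its log2 ratio of 2.51 ranked 9 among the 12305 genes kept. By level, TAGLN moved from rank 9366 to rank 3790 of these genes. The pseudocount had little bearing on TAGLN, whose log2 ratio ran from 2.37 with 1 FPKM added to 2.67 with none. On GRCh38 the gene lies on the forward strand of chromosome 11, from 117199321 to 117204782.

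Neighbours and overlapping genes of TAGLN lay much nearer to equality. The position that the table gives for TAGLN, 117179222 to 117204792, also covers SIDT2, a lysosomal membrane protein gene listed at the same position. SIDT2 was at 2.71 and 2.46 FPKM, a log2 ratio of -0.11. PCSK7, a proprotein convertase gene on the opposite strand, overlaps the 3′ end of TAGLN, and 9.63% of the 50-base stretches of TAGLN transcripts also occur in those of PCSK7. Its own level was 10.5 FPKM in TPC1-Vector against 12.9 in TPC1-INAVA, a log2 ratio of 0.28. Whether the libraries kept the strand is not given in the sources used here, so reads in the overlap cannot be assigned with certainty. Among the 53 other genes within 5 Mb averaging 1 FPKM or more, 27 were higher and 26 lower, with a median of 0.0019, and none reached the log2 ratio of TAGLN, the highest being 0.63 for FXYD2.

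TAGLN2, the transgelin made in most cell types, was the most abundant of the 9 genes, at 460 FPKM in TPC1-Vector against 637 in TPC1-INAVA. Its ratio was 1.38 and its log2 ratio 0.47, below the 1.5-fold line, but its difference of 177 FPKM was the largest of the 9. TAGLN2 was 129 times as abundant as TAGLN in TPC1-Vector and 28.3 times in TPC1-INAVA. TAGLN3, the neuronal member of the family, was listed at 0.0797 and 0.421 FPKM and did not pass the filter. Of the summed level of the 3 transgelins, TAGLN made up 0.766% in TPC1-Vector and 3.42% in TPC1-INAVA.

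ACTA2, which encodes smooth muscle α-actin, was at 5.18 FPKM in TPC1-Vector against 8.28 in TPC1-INAVA. Its ratio was 1.60 and its log2 ratio 0.63, just past the 1.5-fold line at 0.58. With the pseudocount at 1 FPKM the log2 ratio was 0.59, so ACTA2 stayed barely past this line. The cytoplasmic actins that make up the bulk of actin in non-muscle cells differed far less, with ACTB at 3641 and 3740 FPKM and ACTG1 at 2439 and 2382 FPKM. ACTA2 was 0.0851% of the summed level of these 3 actins in TPC1-Vector and 0.135% in TPC1-INAVA.

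ACTA2 lies on the reverse strand of chromosome 10, from 88935074 to 88991339, in a stretch where most genes were lower in TPC1-INAVA. Of the 39 other genes within 5 Mb averaging 1 FPKM or more, 37 were lower and 2 were higher, with a median log2 ratio of -0.37. The highest of these neighbours was HHEX, a homeobox gene, at 0.25. The log2 ratio of ACTA2 thus exceeded the median of its neighbours by 0.996. FAS, a death receptor gene that overlaps ACTA2 on the opposite strand and is listed at the same position, was the other neighbour that was higher, at 22.1 and 24.7 FPKM and a log2 ratio of 0.16. In GENCODE transcripts, 26.0% of the 50-base stretches of ACTA2 occur in transcripts of another gene, among them 13.2% in the antisense gene ACTA2-AS1 and 11.1% in FAS, and their part in the value of ACTA2 was not tested.

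**Figure D3:**
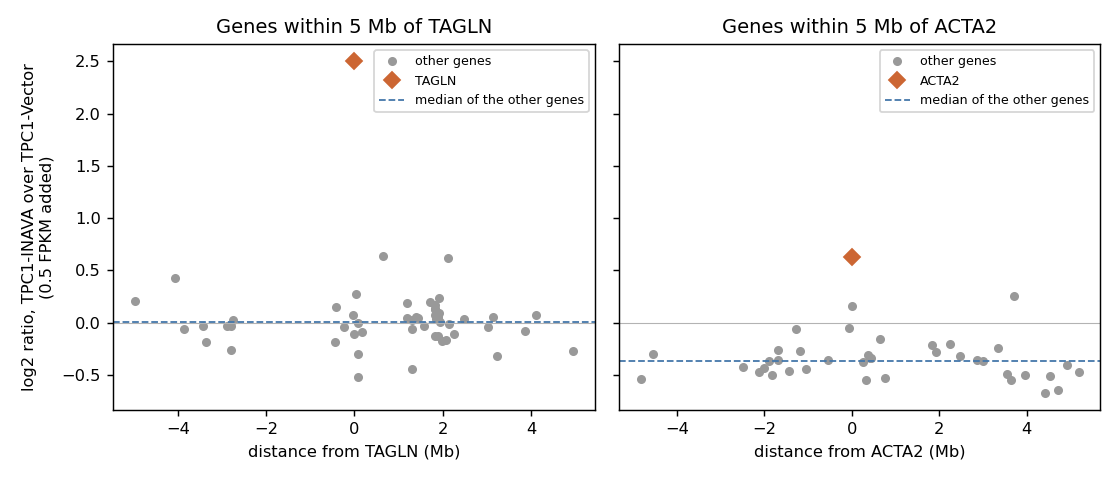
Log2 ratio (0.5 FPKM added) of genes averaging 1 FPKM or more against the distance of their centres from TAGLN (left) and from ACTA2 (right) in Mb, with the named gene as an orange diamond and the median of the other genes as a dashed blue line. The neighbours of TAGLN scatter around 0, with a median of 0.0019, and those of ACTA2 lie mostly below 0, with a median of -0.37.

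TPM1 and TPM2, the tropomyosins that are strong in smooth muscle but also made by other cells, were both higher in TPC1-INAVA. TPM1 was at 209 FPKM in TPC1-Vector against 288 in TPC1-INAVA, a log2 ratio of 0.46. TPM2 was at 151 and 192 FPKM, a log2 ratio of 0.34. The other tropomyosin genes were higher too. TPM4 went from 259 FPKM in TPC1-Vector to 345 in TPC1-INAVA, a log2 ratio of 0.41, and TPM3 was at 305 and 355 FPKM, a log2 ratio of 0.22. The summed level of the 4 genes was 924 FPKM and 1180 FPKM, a ratio of 1.28. The composition of the pool was close in both groups, with TPM1 at 22.6% and 24.4% and TPM2 at 16.3% and 16.2%. TPM1 transcripts shared 20.0% of their 50-base stretches with another gene, and 14.2% of all its stretches with the antisense gene TPM1-AS, which made up most of the sharing. The table gives 1 value per gene and does not separate the muscle forms of TPM1 and TPM2 from the others.

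MYL9, the regulatory light chain whose phosphorylation turns on smooth muscle and non-muscle myosin, was at 39.9 FPKM in TPC1-Vector against 55.2 in TPC1-INAVA, a log2 ratio of 0.46. The close relatives MYL12A and MYL12B were more abundant and nearer to equality, with log2 ratios of 0.22 and 0.16, and MYL9 made up 7.92% and 9.41% of the 3 light chains. MYL12A and MYL12B are listed at the same position as each other, and whether this bears on their values was not tested. The position listed for MYL9 also covers DLGAP4, a scaffold protein gene, at 10.1 and 13.3 FPKM. CALD1, caldesmon, was at 44.9 FPKM in TPC1-Vector against 60.3 in TPC1-INAVA, a log2 ratio of 0.42. The ratios of MYL9, TPM1, TAGLN2 and CALD1 lay close to each other, between 1.34 and 1.38.

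The calponins with a value differed least. CNN3, the acidic calponin, was at 188 FPKM in TPC1-Vector against 221 in TPC1-INAVA, a log2 ratio of 0.23. CNN2 was at 90.1 and 92.3 FPKM, a log2 ratio of 0.03, which lay above 56.9% of the genes kept and below the median of its 112 neighbours within 5 Mb, 0.09. CNN2 was thus the gene of the 9 nearest to equality. Whether the CArG boxes of these genes bear on their levels was not tested, and TAGLN and MYL9 had no promoter window.

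**Figure D4:**
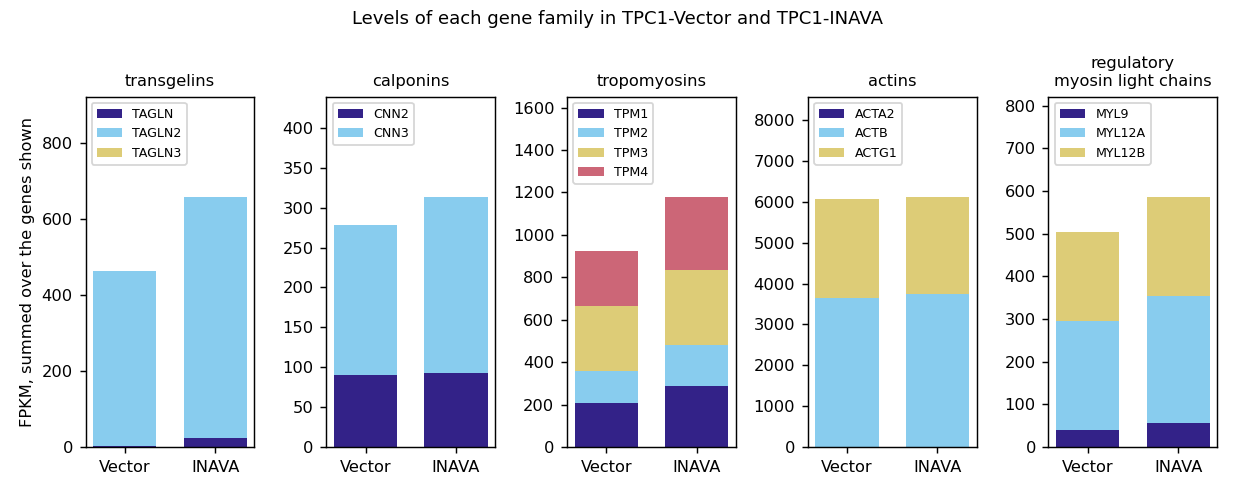
Stacked FPKM values of the genes of 5 families in TPC1-Vector and TPC1-INAVA, each bar starting at 0 and each colour standing for 1 gene, with 1 value per gene and group. The tropomyosin and transgelin bars are higher in TPC1-INAVA (924 to 1180 and 463 to 659 FPKM), and the actin bars are close (6085 and 6130 FPKM), with ACTA2 too small to be seen.

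Genes around the 9 in the same pathway were taken from 4 lists. The first holds SRF and its cofactors, and none of its 7 genes with a value passed 1.5-fold. Of all genes kept, 2.24% were as much higher and 1.45% as much lower, so a list this short would hold few or none. SRF itself was at 14.0 and 14.2 FPKM, MRTFA, the actin-sensing coactivator, at 4.97 and 5.75 FPKM, and MRTFB at 6.42 and 5.28 FPKM. The median log2 ratio of the list was -0.05, with 3 genes higher and 4 lower. Transcript levels of these factors do not show their activity, which for the MRTF proteins depends on their place in the cell.

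Of 28 other smooth muscle and SRF-MRTF target genes, 19 passed the filter, and 14 of these were higher and 5 lower, with a median log2 ratio of 0.21. Of all genes kept, 50.8% were higher and 2.24% passed 1.5-fold higher, beside 1 of these 19 genes. FHL2, a LIM-domain protein gene that SRF is known to induce, was the gene past 1.5-fold, at 47.9 FPKM in TPC1-Vector against 92.7 in TPC1-INAVA, a log2 ratio of 0.95. SMTN, smoothelin, lay just below the line, at 34.4 and 51.1 FPKM and a log2 ratio of 0.57. The actin cross-linker ACTN1 was at 149 and 188 FPKM, a log2 ratio of 0.33, the heavy chain MYH9 of non-muscle myosin at 222 and 272 FPKM, a log2 ratio of 0.29, and FLNA, filamin A, at 452 and 471 FPKM, a log2 ratio of 0.06. At the other end VCL, vinculin, was at 121 and 85.5 FPKM, a log2 ratio of -0.50. VCL also lies on chromosome 10, where 62 neighbours within 5 Mb had a median of -0.31. In the promoter windows of this list, an exact CArG box stood in 12 of 24 genes, and the list was drawn up from known SRF targets. Of the 9238 genes kept with a window, 140 held such a box. The sets are unlike, since the 24 genes were not limited to those that passed the filter. ACTA1, ACTC1 and ACTG2 among the 12 were not analysed here for their levels, and the log2 ratios of the other 9 ran from -0.09 for SVIL to 0.95 for FHL2.

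Neither of the remaining lists, of 8 and 16 genes with a value, had a gene past 1.5-fold, and at the shares of all genes kept, 2.24% higher and 1.45% lower, lists this short would hold few such genes or none. Of the 8 actin, tropomyosin and myosin light chain paralogs, 6 were higher and 2 lower, with a median log2 ratio of 0.18. Of 16 genes with a value for the phosphorylation of the light chain and RhoA signalling, 9 were higher and 7 lower, with a median of 0.0072. The kinase MYLK, which phosphorylates MYL9 and its relatives, was at 30.2 and 30.6 FPKM and RHOA at 393 and 395 FPKM. The ends of this list were RHOC, at 133 and 187 FPKM with a log2 ratio of 0.49, and LIMK1, a kinase that inactivates cofilin, at 31.8 and 23.8 FPKM with a log2 ratio of -0.41.

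**Figure D5:**
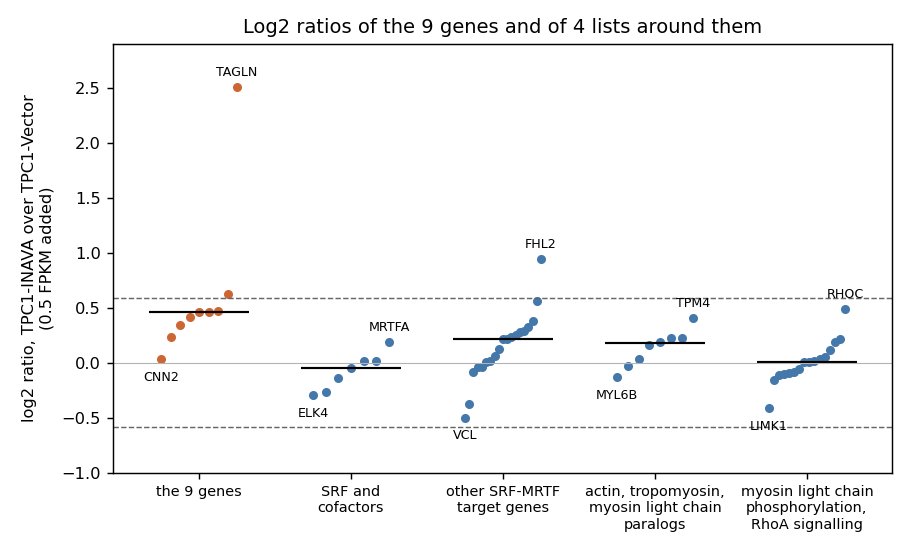
Log2 ratios (0.5 FPKM added) of the 9 genes in orange and of the genes with a value in the 4 lists in blue, with each list's median as a black bar and dashed lines at 1.5-fold. FHL2 is the gene of the lists above the upper line, at 0.95, and no gene of the lists lies below the lower one.

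The culture was also checked for markers of other cells. Of 7 smooth muscle markers, SMTN and SYNM had a value, and the defining genes MYH11, ACTG2, DES, LMOD1 and MYOCD were not analysed here. The summed level of SMTN and SYNM was 39.1 FPKM in TPC1-Vector against 54.7 in TPC1-INAVA, and SYNM alone was lower in TPC1-INAVA, at 4.77 and 3.57 FPKM. Of 8 fibroblast markers 3 had a value, COL1A1, LUM and PDGFRB, with a summed level of 3.56 and 2.19 FPKM. Each was lower in TPC1-INAVA, with plain ratios of 0.609 for COL1A1, 0.586 for LUM and 0.621 for PDGFRB. With 0.5 FPKM added, which shrinks the differences of such weak genes, none of the 3 passed 1.5-fold lower. Of all genes kept, 1.45% did. LUM, at 0.383 and 0.225 FPKM, did not pass the filter, and COL1A1 was weak, at 0.937 and 0.571 FPKM. No endothelial marker of 4 had a value, and of 3 leukocyte markers CD68 alone did, at 5.76 and 8.67 FPKM. The part of other cells in the levels of TAGLN and ACTA2 was not tested. The thyroid factors PAX8 and FOXE1 were at 60.1 and 55.7 FPKM and at 5.26 and 5.89 FPKM. The simple epithelial keratins went opposite ways, with KRT18 at 140 FPKM in TPC1-Vector against 212 in TPC1-INAVA, a log2 ratio of 0.59, and KRT8 at 23.4 and 10.5 FPKM, a log2 ratio of -1.12. KRT8 and KRT18 are listed at the same position, and whether their values were split between them was not tested.

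The genes whose log2 ratio was nearest to that of TAGLN were sought among 11222 other genes of at least 1 FPKM in both groups. They were PDZK1IP1, a small membrane protein gene, at 1.81 and 12.6 FPKM with a log2 ratio of 2.51, the cytokine gene IL32 at 3.16 and 20.8 FPKM with 2.54, the complement gene C3 at 1.49 and 8.70 FPKM with 2.21, the serpin gene SERPINB7 at 1.49 and 6.80 FPKM with 1.87, and LOC102723769 at 7.61 and 25.9 FPKM with 1.70. IL32 was close to TAGLN in level as well as in ratio. The likeness rests on 1 value in each of the 2 groups and says nothing of shared control.

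Across the table, genes with a CArG box in a promoter window are given for comparison. Of 140 genes kept with an exact box, 5 were at least 1.5-fold higher (3.57%) and 3 as much lower (2.14%), with a median log2 ratio of 0.03. Of all 9238 genes kept with a window, 1.78% were as much higher and 1.31% as much lower, and the median was 0.00078. Of 766 genes with a box of 1 G or C in the core, 15 were as much higher (1.96%) and 6 as much lower (0.783%). Of 1383 genes with GGAATG, 28 were as much higher (2.02%) and 23 as much lower (1.66%). No test was run on these shares, which rest on few genes for the exact box. TAGLN had no window and is in none of these counts.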

How the data were processed

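RNA from TPC1 cells was sequenced in 2 libraries per group. The authors deposited 1 FPKM value per gene and group, so libraries had been combined; the submitters' processing notes name CASAVA, Cufflinks 2.1.1, Cuffdiff and build hg38, and the aligner and annotation are not given in the sources used here. The deposited log2 ratio, p-value and q-value columns hold the authors' own comparison and were not used. Depth per library is unknown.

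The members and lists were chosen with earlier results of these data known. Genes averaging 0.5 FPKM or more were kept, and differences of log2(FPKM + 0.5) were computed, with 1.5-fold as the line for calls. With 1 value per group no test was run, and a limma fit planned for values per library could not be made. The genes named were the members, list genes past 1.5-fold, references and the 5 genes nearest to TAGLN in log2 ratio; other list genes were named after their values were seen. Neighbours were genes within 5 Mb averaging 1 FPKM or more. Promoter windows came from RefSeq (GRCh38.p14), gene structures and transcripts from GENCODE release 29 (GRCh38, the same assembly as hg38), and 50-base stretches were compared on both strands. Alternatives were pseudocounts of 0.1, 1 and none, other filters, 2-fold, median-of-ratios scaling, quantile normalization, values relative to GAPDH and subtraction of the median of neighbours. The calculations were tested on simulated data. Python 3.11.15, numpy 2.4.6, pandas 2.3.3, biopython 1.88 and matplotlib 3.10.9 were used.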

Additional observations from a re-analysis of the deposited data

How the results depend on the processing

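No paired analysis was possible because the table has 1 value per group, and for the same reason no library could be left out. The log2 ratio of TAGLN ran from 2.37 to 2.67 and the median of the 9 genes from 0.42 to 0.54 over the alternatives. The members kept their direction in all of them but 1, CNN2, which was at -0.051 after subtraction of the median of genes within 5 Mb. At 2-fold, 1 of the 9 genes was called higher, as were 0.61% of all genes, 0.244% were called lower, and 0 of the other SRF-MRTF target genes were higher. That list had 2 genes higher relative to GAPDH, beside 2.84% of all genes, and 2 with no filter, beside 2.51% of all genes. With a pseudocount of 0.1, 3.06% of all genes were at least 1.5-fold higher and 2.35% as much lower. Without one these shares were 3.34% and 2.67%, since the pseudocount shrinks the differences of weak genes. Since depth is unknown, no counting error can be given for TAGLN and ACTA2, the weakest of the 9 genes.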
